A study of Mus musculus with 47 samples.

Results

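The ThPOK transgenic tumours were set against LMO1 transgenic tumours and tumours labelled Nup98HoxD13 transgenic, to ask how genes of the CD4/CD8 choice, of T cell receptor signalling and of thymocyte maturation differ between them. The tumours were taken by their titles, which gave 3 ThPOK, 3 LMO1 and 3 labelled Nup98HoxD13 tumours, 9 of the 47 mouse T-cell lymphoblastic tumours of the series. Total RNA of the tumour cells was hybridised to Affymetrix arrays, and each array gave 1 MAS5 signal per probe set, a summary of probe brightness in arbitrary units. All 9 tumours are labelled TLX1 negative, and the signal of the uncharacterised transcript *AI506816* was at most 20.1 in each. The labels name the transgene but not its promoter, the mouse strain, the sex or age of the animals, or whether tumours came from separate mice. The p-values therefore measure the spread between samples, which may be technical. No labelled group is normal thymus or a tumour free of a driver gene, so every difference is between lymphomas of different origin.

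ThPOK, the zinc-finger protein encoded by *Zbtb7b*, is switched on in thymocytes selected on MHC class II, where it holds cells in the CD4 helper lineage and represses *Cd8a* and cytotoxic genes. RUNX3 does the reverse in the CD8 lineage. LMO1 is a LIM-only protein that joins TAL1-type complexes and lowers the activity of E proteins, and Nup98HoxD13 is a leukaemia fusion of a nuclear pore protein with a homeobox protein. Thymocytes pass from a CD4 and CD8 double negative stage, where pre-T receptor alpha (*Ptcra*) is used, to a double positive stage with active recombinase, and lose *Rag1*, *Rag2* and terminal transferase (*Dntt*) after positive selection.

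Among the listed T cell genes the largest difference was in *Cd8a*, which encodes the CD8 alpha chain. Its signal was 47.5, 23.1 and 26.5 in ThPOK tumours 1, 2 and 3, against 2940, 801 and 2545 in the LMO1 tumours and 2411, 2046 and 1912 in the labelled Nup98HoxD13 tumours. The groups did not overlap, and the ThPOK signals lay under the mean of the 9 array medians, 70.3. Recombinase genes were lower as well, while *Cd4* and *Cd8b1* were not called. The proximal promoters of *Cd8a* and of the 4 genes called lower in the double positive stage and recombinase list are shown. These 5 genes did not share 1 pattern over the ThPOK tumours, and *Rag2* and *Ptcra* overlapped the other groups. They run from 250 bases before to 50 bases after each RefSeq gene start in GRCm38.p6, and are printed 5′ to 3′ on the gene's strand. Capitals mark matches, on either strand, to a RUNX motif (TGTGGT) or an E-box (CAGCTG, which is its own reverse complement, or CAGGTG). The intervals are chr6:71373177-71373476 on the plus strand for *Cd8a*, chr2:101649483-101649782 on the minus strand for *Rag1* and chr2:101624462-101624761 on the plus strand for *Rag2*. *Ptcra* has chr17:46763663-46763962 on the minus strand and *Dntt* chr19:41029025-41029324 on the plus strand.
Cd8a: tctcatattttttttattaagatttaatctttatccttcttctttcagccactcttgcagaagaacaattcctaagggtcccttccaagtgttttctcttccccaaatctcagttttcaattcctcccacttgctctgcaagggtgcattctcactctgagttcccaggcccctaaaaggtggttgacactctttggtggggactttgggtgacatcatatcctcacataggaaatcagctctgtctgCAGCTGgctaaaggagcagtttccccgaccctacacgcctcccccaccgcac
Rag1: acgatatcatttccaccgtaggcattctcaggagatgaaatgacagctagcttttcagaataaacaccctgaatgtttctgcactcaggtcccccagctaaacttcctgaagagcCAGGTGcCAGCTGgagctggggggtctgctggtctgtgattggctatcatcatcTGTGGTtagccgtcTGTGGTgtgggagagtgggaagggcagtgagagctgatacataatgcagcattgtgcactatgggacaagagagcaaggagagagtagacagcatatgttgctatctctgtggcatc
Rag2: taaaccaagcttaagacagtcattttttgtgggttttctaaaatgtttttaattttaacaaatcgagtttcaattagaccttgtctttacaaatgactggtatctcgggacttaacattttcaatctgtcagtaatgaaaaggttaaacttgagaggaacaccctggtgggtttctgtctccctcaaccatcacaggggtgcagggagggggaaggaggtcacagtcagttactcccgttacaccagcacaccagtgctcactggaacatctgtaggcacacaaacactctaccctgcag
Ptcra: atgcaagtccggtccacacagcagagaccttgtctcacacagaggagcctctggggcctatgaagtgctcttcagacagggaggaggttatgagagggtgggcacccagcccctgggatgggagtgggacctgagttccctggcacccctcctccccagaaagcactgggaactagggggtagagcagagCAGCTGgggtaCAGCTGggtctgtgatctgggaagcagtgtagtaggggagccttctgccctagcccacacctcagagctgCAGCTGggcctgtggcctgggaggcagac
Dntt: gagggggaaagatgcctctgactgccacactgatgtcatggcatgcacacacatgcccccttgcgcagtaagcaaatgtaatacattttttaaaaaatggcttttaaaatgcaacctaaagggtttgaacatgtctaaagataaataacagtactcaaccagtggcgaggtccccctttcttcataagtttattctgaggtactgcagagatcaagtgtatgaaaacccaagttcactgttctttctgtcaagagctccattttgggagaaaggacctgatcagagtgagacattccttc

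The *Cd8a* interval held 1 CAGCTG, that of *Rag1* held 2 TGTGGT, 1 CAGCTG and 1 CAGGTG, and that of *Ptcra* held 3 CAGCTG. The *Rag2* and *Dntt* intervals held none of these letters. Among 32851 promoter intervals of the same length, 16.8% held TGTGGT, 16.3% CAGCTG and 20.2% CAGGTG. A match is a run of letters, not a bound site.

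Before the log2 was taken, 15.853 (the 25th percentile over the deposited values) was added to each signal, so that changes of dim genes are understated. Differences are ThPOK minus the unweighted mean of the LMO1 and labelled Nup98HoxD13 means, given ± SE (3, 3 and 3 tumours) from limma, and a gene was called at a Benjamini-Hochberg adjusted p under 0.05. Of 7134 tested genes 1343 were called (18.8%), 652 higher (9.14%) and 691 lower (9.69%), with 443 changed at least 2-fold. Every count of called genes in a list below is to be read beside these shares. Leaving out a ThPOK tumour lowered the count to 563 (tumour 1), 487 (tumour 2) or 304 (tumour 3), and leaving out LMO1 tumour 3 gave 895. Against the LMO1 tumours alone 788 genes were called (11.0%; 4.85% higher and 6.20% lower), and against the labelled Nup98HoxD13 tumours alone 936 (13.1%; 6.35% higher and 6.77% lower). Both single comparisons use the same 3 ThPOK tumours, so they are given side by side below and not as support for each other. The LMO1 and labelled Nup98HoxD13 tumours, set against each other, gave 8 called genes (0.112%; 0.0841% higher and 0.0280% lower in LMO1 tumours), with 803 at an unadjusted p under 0.05.

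Array medians ran from 71.5 to 76.2 in ThPOK tumours and from 60.1 to 72.7 in the other 6 (two-sided exact permutation p = 0.107, smallest possible 0.0119). The log2 3'/5' ratio of the *Gapdh* control probe sets, a measure of RNA integrity, was −0.29 ± 0.05 in ThPOK tumours and −0.22 ± 0.20 in the other 6 (SD, exact permutation p = 0.69), and LMO1 tumour 2 was highest. The labels call the cells T lymphoblasts, and *Cd3e* was bright in each array, at 1436 to 1917 in ThPOK tumours and 1502 to 2478 in the other 6. Pearson correlations over tested genes ran from 0.911 to 0.954 among ThPOK tumours and from 0.874 to 0.911 between LMO1 and labelled Nup98HoxD13 tumours. Between ThPOK tumours and the others they ran from 0.826 to 0.875.

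The genes named in the titles were read first. *Zbtb7b* was 124, 97.4 and 98.6 in ThPOK tumours, against 28.9, 50.4 and 35.6 in LMO1 tumours and 25.3, 22.9 and 39.7 in labelled Nup98HoxD13 tumours (1.32 ± 0.25, adjusted p = 0.0101). The ThPOK tumours lay above all 6 others, but this probe set exceeded the array median in them alone, so it entered the test only because it was high there. With 1 ThPOK tumour left out it was no longer tested, and with the median signal as pseudocount the difference was 0.76. A second *Zbtb7b* probe set, below the filter, read 46.1, 50.6 and 35.6 in ThPOK tumours, against 9.41, 80.0 and 42.5 in LMO1 tumours and 16.0, 30.6 and 93.6 in labelled Nup98HoxD13 tumours, with the groups overlapping. Whether either probe set detects the transgene is not given in the sources used here.

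*Lmo1* was 8.76, 34.7 and 173 in ThPOK tumours, against 1860, 522 and 2344 in LMO1 tumours and 2526, 586 and 2154 in labelled Nup98HoxD13 tumours (−4.52 ± 0.70, adjusted p = 0.00525). The tumours labelled Nup98HoxD13 thus had as much *Lmo1* signal as the LMO1 tumours, though their label does not name LMO1. Whether the label is right was not tested, and these tumours are called by it throughout. *Dlx1*, a homeobox gene picked after its values were seen, did separate those 2 groups. It was 1.43, 1.39 and 1.43 in ThPOK tumours, 0.736, 1.02 and 1.27 in LMO1 tumours and 288, 94.4 and 109 in labelled Nup98HoxD13 tumours.

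Of 20 coreceptor and lineage genes 18 were tested, 1 rose and 3 fell, beside 9.14% higher and 9.69% lower of all tested genes. The median difference was −0.36 against −0.0025 for all tested genes. *Cd8a* fell by 5.39 ± 0.36 on the log2 scale (adjusted p = 0.000177), with −5.28 against LMO1 tumours alone (adjusted p = 0.000538) and −5.50 against labelled Nup98HoxD13 tumours alone (adjusted p = 0.000733). *Cd8a* was above the array median in none of the ThPOK tumours, so it entered the test only because it was high in the others. Because the ThPOK signals are dim, its size ran from −4.29 with the median signal as pseudocount to −5.95 with a pseudocount of 1. A second *Cd8a* probe set read 6.96, 23.9 and 5.15 in ThPOK tumours, and its difference was −5.90. In these bulk samples, fewer CD8 alpha positive cells and less *Cd8a* RNA per cell cannot be told apart. Among the other 38 tumours of the series *Cd8a* had a median of 1583, and 2 of them were at or below the highest ThPOK signal. The ThPOK mean was the lowest of 14 backgrounds.

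*Cd8b1*, which encodes the CD8 beta chain, did not follow *Cd8a* in every ThPOK tumour. Its signal was 1781, 179 and 607 in ThPOK tumours, against 2240, 544 and 1294 in LMO1 tumours and 981, 2093 and 1243 in labelled Nup98HoxD13 tumours (−1.09 ± 0.63, adjusted p = 0.248). ThPOK tumour 1 was within the range of the others while its *Cd8a* was not. *Cd8b1* passed the test with ThPOK tumour 1 and LMO1 tumour 2 both left out (−2.14, adjusted p = 0.0354), a choice made after the data were seen.

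*Cd4* was 52.2, 735 and 830 in ThPOK tumours, against 647, 580 and 508 in LMO1 tumours and 1255, 594 and 728 in labelled Nup98HoxD13 tumours (−1.0 ± 0.68, adjusted p = 0.323). ThPOK tumour 1 alone was low, and without it the difference was 0.18 (adjusted p = 0.679). By this probe set ThPOK tumours 2 and 3 had *Cd4* and no *Cd8a* signal above the array median, and ThPOK tumour 1 had neither. A dimmer *Cd4* probe set read 4.49, 60.4 and 123 in ThPOK tumours, with tumour 2 under its array median of 76.2, and gave −1.48 (adjusted p = 0.0747).

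**Figure D1:**
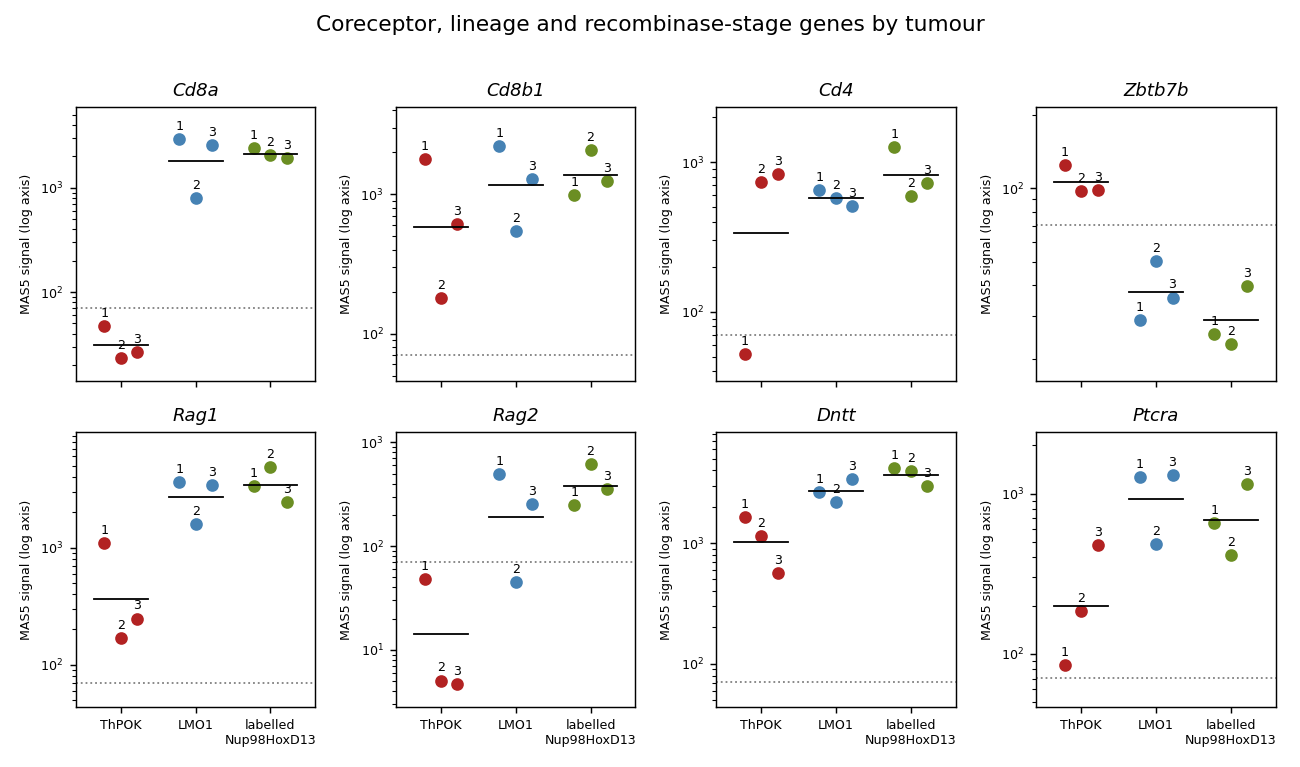
MAS5 signal (log axis, arbitrary units) of 8 genes in each of the 9 tumours, with ThPOK tumours left, LMO1 tumours in the middle and labelled Nup98HoxD13 tumours right; numbers are tumour numbers, bars the group mean of log2(signal + 15.853) turned back to signal, and the dotted line the mean array median, 70.3. All 3 ThPOK tumours lie under that line for *Cd8a*, while for *Cd4* only ThPOK tumour 1 does.

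*Ets1*, a transcription factor needed for full *Runx3* expression in mice, fell in all 3 ThPOK tumours to 1429, 1161 and 820, against 4053, 3546 and 4083 in LMO1 tumours and 2087, 3481 and 2210 in labelled Nup98HoxD13 tumours (−1.48 ± 0.21, adjusted p = 0.00397). *Bcl11b*, which keeps cells in the T lineage, fell by 0.76 ± 0.20 (adjusted p = 0.0289). Its call was lost when any of the ThPOK tumours was left out (adjusted p = 0.0524 to 0.111). *Cbfb*, the shared partner of RUNX proteins, was −0.53 ± 0.17 (adjusted p = 0.053).

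*Runx3* itself was below the filter, since it exceeded the array median in 2 arrays. It read 80.6, 77.5 and 70.1 in ThPOK tumours, against 27.1, 12.4 and 23.3 in LMO1 tumours and 18.1, 43.3 and 28.1 in labelled Nup98HoxD13 tumours. These signals are dim and were not tested, and the ThPOK tumours lay above the other 6. *Gata3*, which acts upstream of *Zbtb7b* in the CD4 lineage, was 346, 498 and 235 in ThPOK tumours, 214, 308 and 322 in LMO1 tumours and 110, 299 and 189 in labelled Nup98HoxD13 tumours (0.57 ± 0.31, adjusted p = 0.217). *Tox*, needed for the CD4 lineage in mice, was −0.15 ± 0.47 (adjusted p = 0.856). *Tcf7* had no probe set of its own here.

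Of 18 genes of the double positive stage and recombinase 15 were tested, with a median of −0.65. Among them 4 fell and 1 rose, beside 9.69% and 9.14% of all tested genes. *Rag1* was 1092, 168 and 248 in ThPOK tumours, against 3625, 1585 and 3446 in LMO1 tumours and 3337, 4887 and 2471 in labelled Nup98HoxD13 tumours (−3.02 ± 0.51, adjusted p = 0.00698). The groups did not overlap, and ThPOK tumour 1 was nearest to the others. *Rag2*, its partner, was 47.7, 5.05 and 4.68 in ThPOK tumours, against 499, 45.1 and 257 in LMO1 tumours and 248, 613 and 351 in labelled Nup98HoxD13 tumours (−3.24 ± 0.63, adjusted p = 0.0111). ThPOK tumour 1 and LMO1 tumour 2 were at the same level. *Rag2* was above the array median in none of the ThPOK tumours and passed the filter through the others alone. The *Rag2* call was lost without ThPOK tumour 3 (adjusted p = 0.0536), and its size was −2.0 with the median signal as pseudocount.

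*Dntt*, which adds untemplated bases at receptor joints, was 1644, 1151 and 564 in ThPOK tumours, against 2636, 2201 and 3371 in LMO1 tumours and 4224, 3980 and 2961 in labelled Nup98HoxD13 tumours (−1.61 ± 0.29, adjusted p = 0.00903). It fell without overlap but stayed far above the array medians. *Ptcra* was 85.1, 185 and 481 in ThPOK tumours, against 1262, 487 and 1307 in LMO1 tumours and 660, 413 and 1146 in labelled Nup98HoxD13 tumours (−1.91 ± 0.51, adjusted p = 0.0285). ThPOK tumour 3 overlapped the other groups, and the call was lost without ThPOK tumour 1 (adjusted p = 0.104) or 2 (adjusted p = 0.0946), without LMO1 tumour 1 (adjusted p = 0.0551) or 3 (adjusted p = 0.0561), and with LMO1 tumour 2 and ThPOK tumour 1 both left out (adjusted p = 0.0603). When all 14 backgrounds shared 1 estimate of the spread, *Rag2* kept its call, and *Rag1* (adjusted p = 0.0519), *Dntt* (adjusted p = 0.292) and *Ptcra* (adjusted p = 0.258) did not.

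Other genes of the double positive list did not move together. *Cd1d1*, which presents lipids to NKT cells, rose by 0.55 ± 0.16 (adjusted p = 0.0365). The difference was 1.11 against labelled Nup98HoxD13 tumours alone (adjusted p = 0.011) and 0.00 against LMO1 tumours alone (adjusted p = 0.992), and the call was lost without any 1 ThPOK tumour. *Ccr9*, a thymic homing receptor, was 1416, 4158 and 3113 in ThPOK tumours, against 1077, 1030 and 113 in LMO1 tumours and 2397, 1481 and 80.5 in labelled Nup98HoxD13 tumours (2.12 ± 1.00, adjusted p = 0.161). *Cd24a*, lost as thymocytes mature, was 295, 4155 and 3178 in ThPOK tumours, against 3534, 2765 and 2756 in LMO1 tumours and 2538, 3161 and 2277 in labelled Nup98HoxD13 tumours (−0.82 ± 0.66, adjusted p = 0.411). ThPOK tumour 1 stood apart, below the other 8. Both genes were picked after their values were seen.

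**Figure D2:**
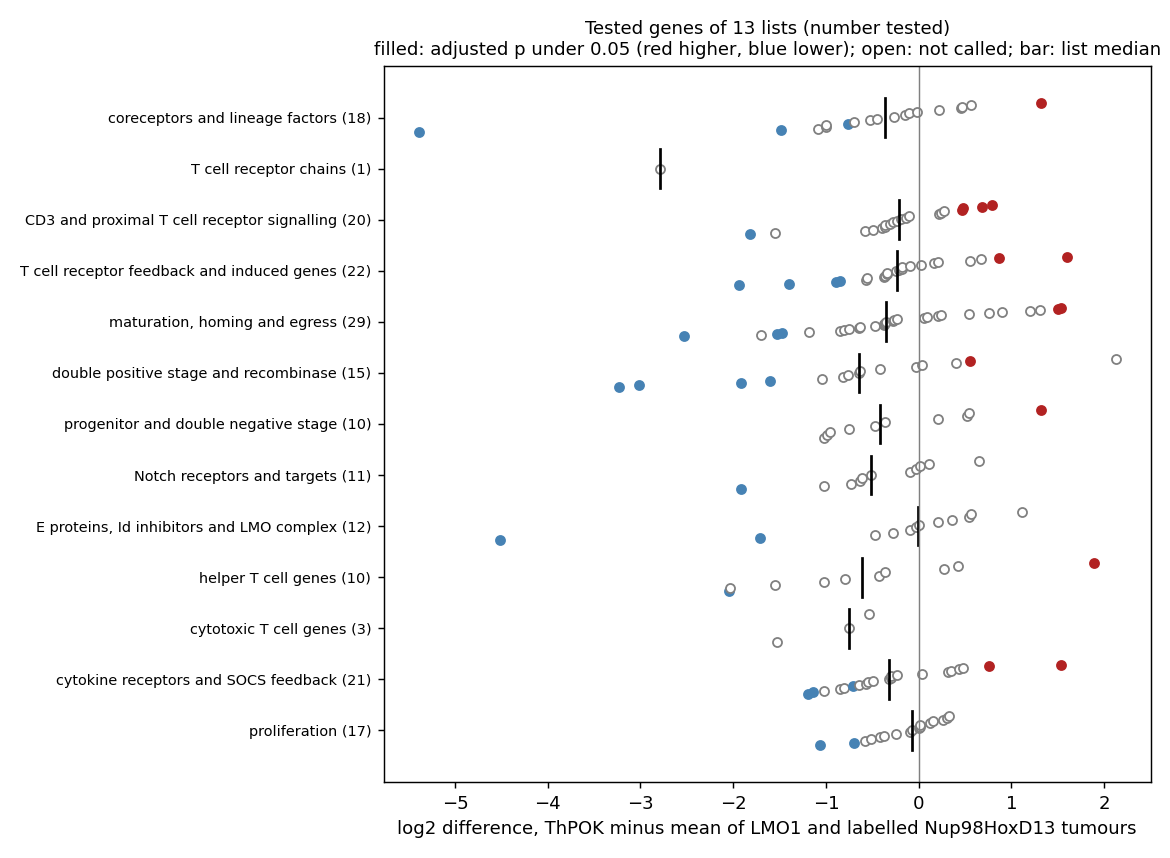
Log2 difference, ThPOK tumours minus the mean of LMO1 and labelled Nup98HoxD13 tumours, of each tested gene in 13 lists; filled points were called (red higher, blue lower), open points were not, and the black bar is the list's median. Most points lie within 1 of 0, and *Cd8a* (−5.39) and *Lmo1* (−4.52) lie farthest out.

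T cell receptor chains were barely covered, since 1 of 17 listed genes was tested. *Trgv4*, a gamma chain segment, was 7.00, 20.5 and 39.8 in ThPOK tumours, against 12.2, 86.6 and 1054 in LMO1 tumours and 337, 3126 and 52.0 in labelled Nup98HoxD13 tumours (−2.79 ± 1.23, adjusted p = 0.14). For *Trgv4* all 3 ThPOK tumours were dim and the other tumours differed widely among themselves. *Trgv1*, a gamma chain segment outside the list and picked after its values were seen, overlapped between the groups. It was 33.5, 420 and 727 in ThPOK tumours, against 261, 413 and 4195 in LMO1 tumours and 148, 3381 and 547 in labelled Nup98HoxD13 tumours.

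Of 28 CD3 and proximal signalling genes 20 were tested, and 4 rose and 1 fell, beside 9.14% and 9.69% of all tested genes. The median was −0.22. Against LMO1 tumours alone 0 of the 20 were called, beside 11.0% of all tested genes. Against labelled Nup98HoxD13 tumours alone 4 rose and 1 fell, beside 6.35% and 6.77% of all tested genes. The receptor subunits *Cd3d* (0.46 ± 0.13, adjusted p = 0.0303) and *Cd3g* (0.47 ± 0.13, adjusted p = 0.0348) rose slightly. *Cd3g* was 2584 to 3073 in ThPOK tumours and overlapped the LMO1 tumours (2362 to 2955). *Cd3d* was 4670, 4748 and 4360 in ThPOK tumours, against 4196, 4105 and 4009 in LMO1 tumours and 2416, 3220 and 2514 in labelled Nup98HoxD13 tumours. The difference was 0.76 against labelled Nup98HoxD13 tumours alone and 0.16 against LMO1 tumours alone. *Cd3e* was −0.11 ± 0.16 (adjusted p = 0.662).

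*Lat*, the scaffold that links the receptor to downstream signals, rose by 0.68 ± 0.20 (adjusted p = 0.0369), and the adaptor *Sh2d2a* by 0.79 ± 0.22 (adjusted p = 0.0312). *Sh2d2a* was 411, 291 and 459 in ThPOK tumours and overlapped the LMO1 tumours (293, 180 and 298). *Txk*, a TEC family kinase, was 39.8, 27.2 and 114 in ThPOK tumours, against 244, 94.3 and 348 in LMO1 tumours and 272, 391 and 135 in labelled Nup98HoxD13 tumours (−1.82 ± 0.47, adjusted p = 0.0262), and its call was lost without ThPOK tumour 1 or 2. The costimulatory receptor *Cd28* was 1349, 189 and 154 in ThPOK tumours, against 1559, 1083 and 1233 in LMO1 tumours and 519, 1192 and 1013 in labelled Nup98HoxD13 tumours (−1.55 ± 0.57, adjusted p = 0.086). ThPOK tumours 2 and 3 lay below all others, and without ThPOK tumour 1 the difference was −2.51 (adjusted p = 0.00491). The 4 rises of this list became 1 after quantile normalization, 0 without ThPOK tumour 1 or 3, and 0 with all 14 backgrounds in the fit. The pan T cell markers also summed higher, to between 16686 and 19303 in ThPOK tumours against 10013 to 17006 in the other 6. That sum includes these CD3 genes and its part in the rises was not tested.

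Of 32 feedback and receptor-induced genes 22 were tested, and 2 rose and 4 fell, beside 9.14% and 9.69% of all tested genes. The median was −0.23. *Egr3*, an early growth response factor induced by receptor signals, was 118, 125 and 137 in ThPOK tumours, against 29.9, 45.1 and 42.4 in LMO1 tumours and 34.5, 10.7 and 32.8 in labelled Nup98HoxD13 tumours (1.60 ± 0.27, adjusted p = 0.00702). Like *Zbtb7b*, it passed the filter through the ThPOK tumours alone, and its size was 0.93 with the median signal as pseudocount. *Sla2*, which encodes an adaptor that damps receptor signalling, was 375, 476 and 478 in ThPOK tumours, against 254, 199 and 242 in LMO1 tumours and 219, 250 and 243 in labelled Nup98HoxD13 tumours (0.87 ± 0.15, adjusted p = 0.00752). Its paralog *Sla*, which lowers receptor levels in mouse double positive thymocytes, moved the other way. *Sla* was 1172, 745 and 724 in ThPOK tumours, against 2341, 1371 and 2879 in LMO1 tumours and 1911, 3660 and 2253 in labelled Nup98HoxD13 tumours (−1.40 ± 0.28, adjusted p = 0.0121). In these probe sets neither *Sla* nor *Sla2* overlapped between the groups. A second *Sla* probe set did overlap, at 274 to 423 in ThPOK tumours and 240 in LMO1 tumour 2, and gave −1.22 (adjusted p = 0.0516). The *Sla* call was also lost without ThPOK tumour 2 (adjusted p = 0.0515) or 3 (adjusted p = 0.0604), and that of *Sla2* with all 14 backgrounds in the fit (adjusted p = 0.415).

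*Cd5*, a negative regulator whose level follows the strength of receptor signals, was 89.2, 76.1 and 40.9 in ThPOK tumours, against 459, 459 and 514 in LMO1 tumours and 41.5, 224 and 552 in labelled Nup98HoxD13 tumours (−1.93 ± 0.56, adjusted p = 0.0383). Labelled Nup98HoxD13 tumour 1 was as low as the ThPOK tumours. The call held against LMO1 tumours alone (−2.59, adjusted p = 0.0356) but not against labelled Nup98HoxD13 tumours alone (−1.28, adjusted p = 0.212), and it was lost in 11 of 22 alternatives. The phosphatase *Ptpn6* fell by 0.89 ± 0.24 (adjusted p = 0.03), while another of its probe sets gave 0.31, and the call was lost without ThPOK tumour 1 or 3. The calcineurin regulator *Rcan1* fell by 0.85 ± 0.25 (adjusted p = 0.0427). *Nr4a1*, a rapid response gene, was 0.16 ± 0.56 (adjusted p = 0.867), *Egr1* was −0.55 ± 0.60 (adjusted p = 0.542) and *Id3* was −0.09 ± 0.44 (adjusted p = 0.905). *Rcan1*, *Nr4a1* and *Egr1* were picked after their values were seen. The list thus held called genes in both directions, as did all tested genes (9.14% higher and 9.69% lower). Without ThPOK tumour 3, 1 rise and 0 falls were called.

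**Figure D3:**
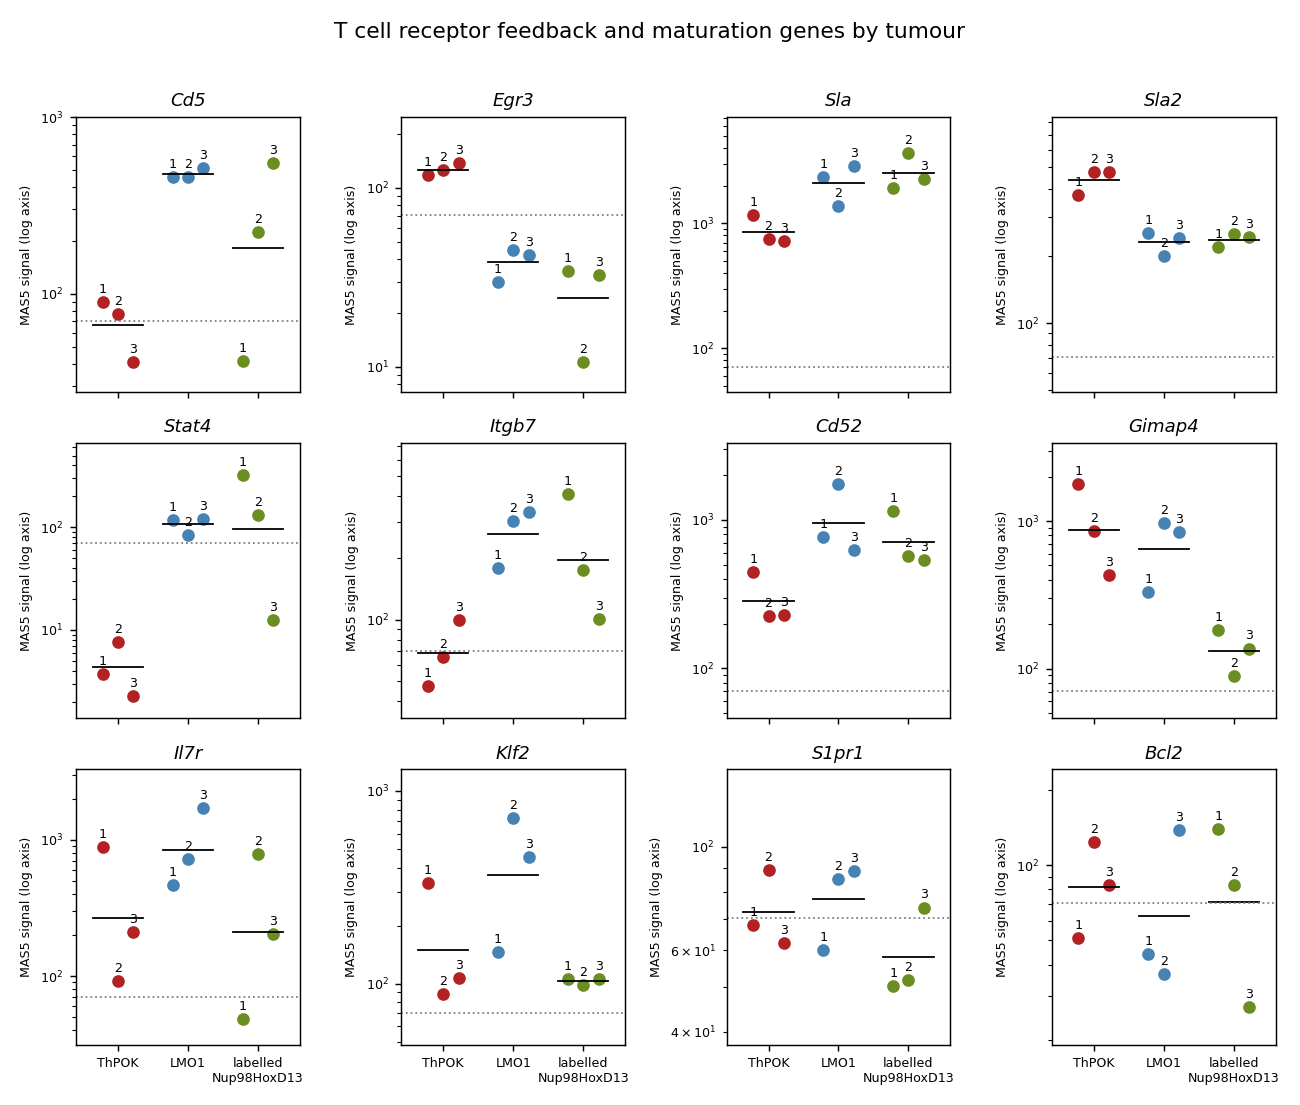
MAS5 signal (log axis, arbitrary units) of 12 feedback and maturation genes in each tumour, drawn as for the coreceptor genes, with the mean array median (70.3) as a dotted line. In the probe sets plotted, *Egr3* and *Sla2* lie higher and *Sla* lower in all 3 ThPOK tumours than in the other 6, while *Il7r*, *Klf2*, *S1pr1* and *Bcl2* overlap.

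Of 38 maturation, homing and egress genes 29 were tested, and 2 rose and 3 fell, beside 9.14% and 9.69% of all tested genes. The median was −0.35. *Il7r*, the interleukin 7 receptor that mature thymocytes regain, was 884, 92.0 and 211 in ThPOK tumours, against 466, 723 and 1715 in LMO1 tumours and 48.7, 786 and 204 in labelled Nup98HoxD13 tumours (−0.64 ± 0.81, adjusted p = 0.609). *Klf2*, which drives thymic egress, was 334, 88.0 and 107 in ThPOK tumours, against 145, 720 and 454 in LMO1 tumours and 105, 97.8 and 106 in labelled Nup98HoxD13 tumours (−0.37 ± 0.48, adjusted p = 0.619). In both genes ThPOK tumour 1 was the highest of its group and the groups overlapped. *S1pr1*, the egress receptor, was 0.09 ± 0.23 (adjusted p = 0.81), with signals of 50.2 to 89.1 in all 9 tumours, and the survival gene *Bcl2* was 0.24 ± 0.46 (adjusted p = 0.752). *Ccr7*, which guides selected thymocytes to the medulla, was below the filter, at 3.02, 6.90 and 1.83 in ThPOK tumours, 44.3, 187 and 57.0 in LMO1 tumours and 34.3, 9.50 and 68.0 in labelled Nup98HoxD13 tumours. *Cd69* had no probe set of its own here.

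*Stat4*, which relays interleukin 12 signals, fell most in this list. It was 3.70, 7.56 and 2.28 in ThPOK tumours, against 119, 84.2 and 120 in LMO1 tumours and 322, 132 and 12.5 in labelled Nup98HoxD13 tumours (−2.53 ± 0.61, adjusted p = 0.0221). The groups did not overlap, but *Stat4* was above the array median in none of the ThPOK tumours and passed the filter through the others alone. Its size was −1.26 with the median signal as pseudocount and −4.21 with a pseudocount of 1, and leaving out any ThPOK tumour ended the call (adjusted p = 0.0623 to 0.0822). The gut-homing integrin *Itgb7* (−1.52 ± 0.38, adjusted p = 0.0242) and the lymphocyte surface antigen *Cd52* (−1.48 ± 0.37, adjusted p = 0.0238) also fell. The *Itgb7* call was lost without any 1 ThPOK tumour, and that of *Cd52* without ThPOK tumour 2 or 3.

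*Gimap4*, a GTPase of maturing T cells, was 1793, 853 and 430 in ThPOK tumours, against 329, 965 and 848 in LMO1 tumours and 184, 89.3 and 137 in labelled Nup98HoxD13 tumours (1.51 ± 0.45, adjusted p = 0.0425). It overlapped the LMO1 tumours (0.42 against them, adjusted p = 0.63), and its call was lost in 12 of 22 alternatives. *Il6ra* rose by 1.53 ± 0.41 (adjusted p = 0.0298), with signals of 84.7 to 93.9 in ThPOK tumours against 3.42 to 39.5 in the other 6, and it too passed the filter through the ThPOK tumours alone. With a pseudocount of 1 its call was lost (2.33, adjusted p = 0.0784). Of 174 tested genes in the 13 lists, 3 were above the array median in the ThPOK tumours alone, namely *Zbtb7b*, *Egr3* and *Il6ra*. Another 12, *Cd8a*, *Rag2*, *Stat4* and *Bcl6* among them, were above it in none of the ThPOK tumours and passed the filter through the other 6. Of all 7134 tested genes, 56 were above the array median in the ThPOK tumours alone and 218 in none of the ThPOK tumours.

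Helper and cytotoxic genes were largely dim. Of 20 helper genes 10 were tested, with 1 rise and 1 fall, beside 9.14% and 9.69% of all tested genes. The median was −0.61. *Batf*, an AP-1 family factor of helper and effector T cells, was 260, 332 and 526 in ThPOK tumours, against 39.7, 155 and 119 in LMO1 tumours and 54.5, 71.6 and 117 in labelled Nup98HoxD13 tumours (1.89 ± 0.37, adjusted p = 0.0117). *Bcl6*, the follicular helper repressor, was 46.6, 46.8 and 28.5 in ThPOK tumours, against 448, 197 and 189 in LMO1 tumours and 247, 248 and 89.8 in labelled Nup98HoxD13 tumours (−2.04 ± 0.36, adjusted p = 0.0076). Neither overlapped between the groups, but a second, dimmer *Bcl6* probe set gave −0.16, and the *Batf* call was lost without ThPOK tumour 3 (adjusted p = 0.0609). The *Bcl6* probe set tested was above the array median in none of the ThPOK tumours and passed the filter through the others alone. *Foxp3*, *Il4*, *Il21* and *Cd40lg* were below the filter.

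Of 19 cytotoxic genes 3 were tested and 0 were called by limma (*Ctsw* had an unadjusted p of 0.0139), beside 18.8% of all tested genes. *Ctsw*, a cytotoxic cell cathepsin, was 9.37, 7.15 and 14.3 in ThPOK tumours, against 43.5, 95.6 and 89.6 in LMO1 tumours and 119, 5.98 and 71.9 in labelled Nup98HoxD13 tumours (−1.53 ± 0.52, adjusted p = 0.0651). *Gzma*, which encodes granzyme A, was 1108, 5664 and 1810 in ThPOK tumours, against 2804, 4332 and 5537 in LMO1 tumours and 899, 6374 and 3169 in labelled Nup98HoxD13 tumours (−0.54 ± 0.61, adjusted p = 0.567). Bright *Gzma* was thus present in tumours of all 3 groups, whereas *Prf1*, *Gzmb*, *Eomes* and *Tbx21* were below the filter.

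Of 14 genes of E proteins, their inhibitors and the LMO complex 12 were tested, with a median of −0.01. *Lmo1* and *Id1* fell and none rose, beside 9.69% and 9.14% of all tested genes. *Id1*, an inhibitor of E proteins, was 98.5, 85.4 and 80.1 in ThPOK tumours, against 359, 173 and 762 in LMO1 tumours and 355, 309 and 215 in labelled Nup98HoxD13 tumours (−1.71 ± 0.37, adjusted p = 0.0149). The related inhibitor *Id2* was 781, 1352 and 1099 in ThPOK tumours, against 851, 436 and 688 in LMO1 tumours and 814, 428 and 129 in labelled Nup98HoxD13 tumours (1.11 ± 0.46, adjusted p = 0.119). The *Id1* groups did not overlap and those of *Id2* did. The *Id1* call was lost without ThPOK tumour 2 or 3.

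Of 15 Notch genes 11 were tested and *Ptcra* was the 1 that fell (median −0.51), beside 9.69% of all tested genes. *Notch1* was 1656, 3505 and 4069 in ThPOK tumours, against 3201, 2625 and 1736 in LMO1 tumours and 1849, 939 and 1455 in labelled Nup98HoxD13 tumours (0.65 ± 0.32, adjusted p = 0.177). *Myc* was 748, 681 and 728 in ThPOK tumours, against 1266, 1343 and 1262 in LMO1 tumours and 639, 1404 and 1538 in labelled Nup98HoxD13 tumours (−0.73 ± 0.24, adjusted p = 0.064). Of 19 progenitor and double negative genes 10 were tested and *Igfbp4*, an insulin-like growth factor binding protein, rose by 1.31 ± 0.35 (adjusted p = 0.0285). That call was lost without any 1 ThPOK tumour.

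Of 28 cytokine receptor and feedback genes 21 were tested (median −0.32), and 2 rose and 3 fell, beside 9.14% and 9.69% of all tested genes. The kinase *Jak3*, used by receptors with the common gamma chain, was 40.6, 43.1 and 64.0 in ThPOK tumours, against 116, 101 and 162 in LMO1 tumours and 103, 188 and 137 in labelled Nup98HoxD13 tumours (−1.19 ± 0.24, adjusted p = 0.0126). It was above the array median in none of the ThPOK tumours and entered the test only because it was high in the others. *Il6st*, the signalling chain of the interleukin 6 receptor, fell by 1.14 ± 0.21 (adjusted p = 0.00987), opposite to *Il6ra*. *Stat5b* fell by 0.71 ± 0.17 (adjusted p = 0.0217), and *Tyk2* rose by 0.76 ± 0.19 (adjusted p = 0.0228). The calls of *Jak3*, *Stat5b* and *Tyk2* were lost without ThPOK tumour 2. Of 18 proliferation genes 17 were tested, with a median of −0.08. The replication helicase subunits *Mcm4* (−1.07 ± 0.21, adjusted p = 0.0117) and *Mcm5* (−0.69 ± 0.17, adjusted p = 0.0227) fell, and both calls were lost without ThPOK tumour 3. A further *Mcm4* probe set past the filter overlapped between the groups and gave −0.38.

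The largest rise was in *Stc1*, which encodes the secreted glycoprotein stanniocalcin. It was 1253, 1077 and 597 in ThPOK tumours, against 88.4, 69.4 and 58.4 in LMO1 tumours and 79.0, 29.2 and 33.6 in labelled Nup98HoxD13 tumours (3.72 ± 0.30, adjusted p = 0.00041). Of the other 38 tumours 1 reached the lowest of these ThPOK signals. *Ryk*, a Wnt receptor, was 303, 253 and 275 in ThPOK tumours and 2.75 to 51.7 in the other 6 (3.46 ± 0.43, adjusted p = 0.00328). It was above the array median in the ThPOK tumours alone and passed the filter through them. *Ccnd2*, the D-type cyclin of lymphocyte cell cycle entry, was 436, 1480 and 486 in ThPOK tumours, against 39.0, 164 and 66.3 in LMO1 tumours and 41.0, 73.7 and 70.2 in labelled Nup98HoxD13 tumours (3.05 ± 0.44, adjusted p = 0.00431). The 4 other *Ccnd2* probe sets past the filter gave 2.47 to 2.87.

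*Sdc4* (3.41 ± 0.35), a cell-surface proteoglycan, the actin-binding *Cttn* (2.89 ± 0.42), *Dipk1b* (2.83 ± 0.47), *Tes* (2.72 ± 0.51) and the Wnt inhibitor *Nkd1* (2.58 ± 0.45) also rose, each without overlap in the probe sets used. Like the other largest rises and falls, they were named for the size of a called difference, so lack of overlap is no separate support. A further *Sdc4* probe set past the filter overlapped between the groups and gave −0.39. *Sox13*, a transcription factor of gamma-delta T cells in mice, was 126, 1241 and 729 in ThPOK tumours, against 21.9, 87.2 and 54.2 in LMO1 tumours and 133, 41.0 and 33.3 in labelled Nup98HoxD13 tumours (2.87 ± 0.64, adjusted p = 0.0173). ThPOK tumour 1 overlapped labelled Nup98HoxD13 tumour 1. *Bves* rose by 2.55 ± 0.60 (adjusted p = 0.0204). The *Sox13* call was lost without ThPOK tumour 2 or 3, and that of *Bves* without any 1 ThPOK tumour. *Asns*, which makes asparagine (2.80 ± 0.87, adjusted p = 0.0492), and the interferon-induced *Usp18* (2.66 ± 0.83, adjusted p = 0.0493) were just past the threshold, and their calls were lost in 15 and 14 of 22 alternatives.

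**Figure D4:**
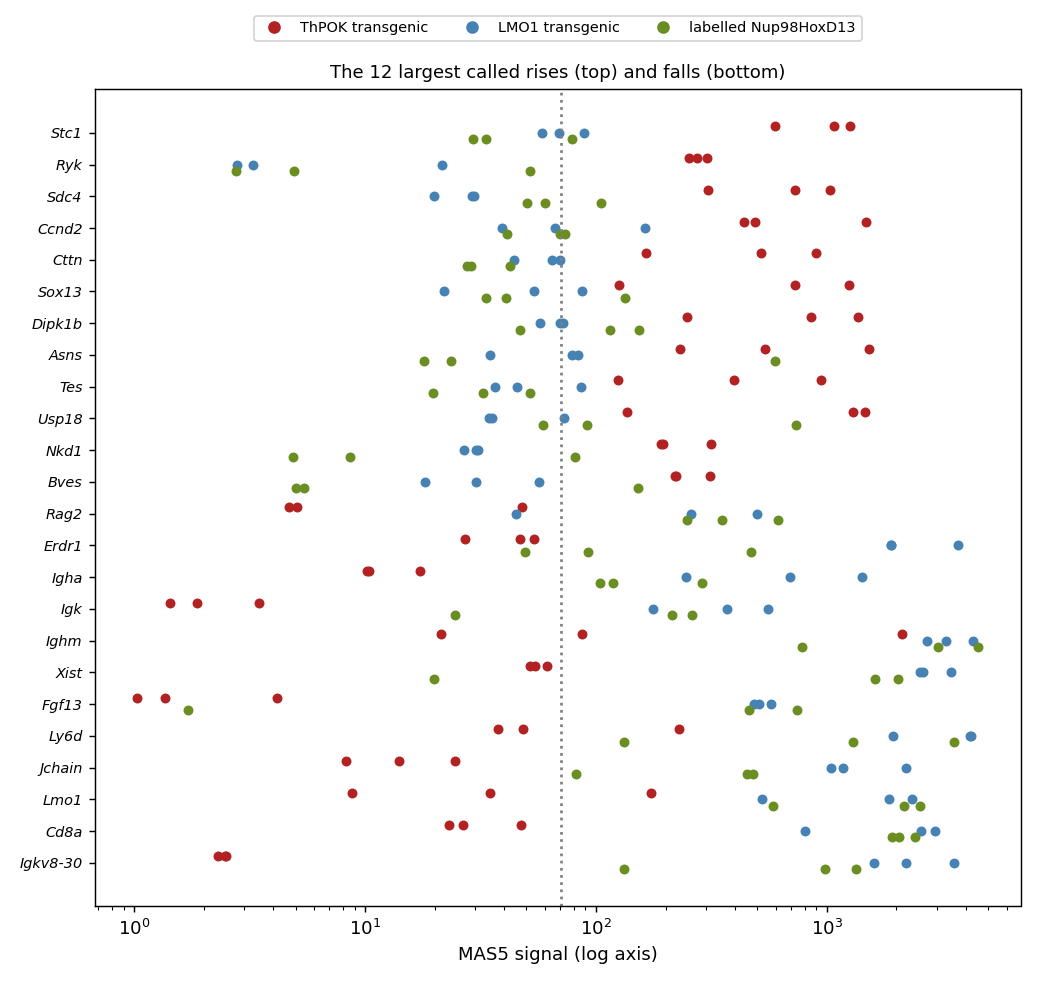
MAS5 signal (log axis, arbitrary units) in each tumour of the 12 called genes with the largest rises (upper rows) and the 12 with the largest falls (lower rows); in each row the points are ThPOK (red, upper), LMO1 (blue, middle) and labelled Nup98HoxD13 tumours (green, lower), and the dotted line is the mean array median, 70.3. *Stc1* lies at 597 to 1253 in ThPOK tumours and at or under 88.4 in the other 6.

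Of the 12 largest falls 5 were immunoglobulin genes or their joining chain, and immunoglobulin genes share sequence, so their signals may not be separate. *Igkv8-30*, a kappa light chain variable gene, was 2.31, 2.50 and 2.46 in ThPOK tumours, against 1597, 3568 and 2201 in LMO1 tumours and 132, 1340 and 978 in labelled Nup98HoxD13 tumours (−6.00 ± 0.58, adjusted p = 0.00162). *Jchain* (−4.36 ± 0.49), *Igk* (−3.59 ± 0.57) and *Igha* (−3.54 ± 0.48) fell without overlap in the probe sets used. A further *Igk* probe set past the filter overlapped between the groups and gave −0.59. The *Igk* call was lost with a pseudocount of 1 (adjusted p = 0.359). *Ighm*, the IgM heavy chain, was 2115, 87.0 and 21.4 in ThPOK tumours, against 2703, 4283 and 3262 in LMO1 tumours and 777, 4531 and 3019 in labelled Nup98HoxD13 tumours (−3.76 ± 1.05, adjusted p = 0.0337), and ThPOK tumour 1 overlapped the others. The *Ighm* call was lost in 8 of 22 alternatives. *Igkv8-30*, *Jchain*, *Igk*, *Igha*, and the *Fgf13*, *Xist* and *Erdr1* described next, were above the array median in none of the ThPOK tumours and passed the filter through the others alone. Of 10 B cell markers 7 were tested, 2 fell (*Ighm*, *Jchain*) and none rose, beside 9.69% and 9.14% of all tested genes. Their signals summed to 289 to 2396 in ThPOK tumours and 1159 to 8779 in the other 6, with LMO1 tumour 2 highest. The part of B cells in these falls was not tested.

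The other large falls were *Ly6d* (−4.17 ± 0.86), a surface protein of early lymphocytes, *Fgf13* (−4.13 ± 0.94), *Xist* (−4.05 ± 1.04) and *Erdr1* (−3.39 ± 0.53). *Erdr1* was 54.1, 46.8 and 27.0 in ThPOK tumours, against 3697, 1890 and 1903 in LMO1 tumours and 49.3, 92.0 and 470 in labelled Nup98HoxD13 tumours. Its difference was −5.38 from the LMO1 tumours (adjusted p = 0.00324) and −1.40 from the labelled Nup98HoxD13 tumours (adjusted p = 0.154), with which it overlapped. *Ly6d* was 48.3, 37.6 and 230 in ThPOK tumours, against 4146, 1939 and 4189 in LMO1 tumours and 3535, 1297 and 133 in labelled Nup98HoxD13 tumours, and ThPOK tumour 3 overlapped the last of these. *Fgf13* was 1.03, 4.14 and 1.36 in ThPOK tumours, 570, 485 and 509 in LMO1 tumours and 743, 458 and 1.72 in labelled Nup98HoxD13 tumours. *Xist*, the RNA of the inactive X chromosome, was 61.4, 54.5 and 52.0 in ThPOK tumours, 2521, 3456 and 2597 in LMO1 tumours and 2033, 19.9 and 1616 in labelled Nup98HoxD13 tumours. The calls of *Fgf13* and *Xist* were lost without any 1 ThPOK tumour, that of *Ly6d* without ThPOK tumour 2, and that of *Erdr1* with the other 6 tumours as 1 group. *Eif2s3y*, a Y-linked gene picked after its values were seen, was 492, 17.3 and 23.9 in ThPOK tumours, against 0.431, 1.58 and 0.351 in LMO1 tumours and 5.32, 286 and 2.87 in labelled Nup98HoxD13 tumours. *Kdm5d*, another Y-linked gene picked after its values were seen, was 135, 117 and 12.9 in ThPOK tumours, against 0.597, 2.37 and 6.31 in LMO1 tumours and 4.92, 123 and 2.52 in labelled Nup98HoxD13 tumours. ThPOK tumour 1 and labelled Nup98HoxD13 tumour 2 thus had low *Xist* with high *Eif2s3y* and *Kdm5d*, while of these 3 genes ThPOK tumour 2 was high in *Kdm5d* alone. The part of sex in any difference was not tested.

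Several myeloid markers were higher in ThPOK tumours. Of 17 such markers 13 were tested, 7 rose and none fell, beside 9.14% and 9.69% of all tested genes. Their median was 1.02. The macrophage genes *C1qa* (1.71, adjusted p = 0.0058), *Fcgr3* (1.67, adjusted p = 0.0071), *Lyz2* (1.17, adjusted p = 0.0103) and *Cd68* (1.05, adjusted p = 0.0041) were among the rises. The other 6 were not called, among them *Csf1r* (0.17), *S100a8* (0.44), *S100a9* (0.32) and *Ltf* (−0.75). *Lyz2* was 4767, 2786 and 3391 in ThPOK tumours, against 1384, 2341 and 1425 in LMO1 tumours and 1259, 1735 and 1510 in labelled Nup98HoxD13 tumours. The 13 signals summed to 8871 to 15209 in ThPOK tumours and 5002 to 8404 in the other 6, without overlap, while *Mpo*, *Elane* and *Itgam* were below the filter.

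Stromal markers summed to 2800 to 6539 in ThPOK tumours and 1202 to 3594 in the other 6, where *Sparc* rose (1.13 ± 0.32, adjusted p = 0.0356) as 1 of 5 tested of 12. Of 12 dendritic cell and MHC class II markers 6 were tested and 0 called, at sums of 1062 to 2718 in ThPOK tumours and 1307 to 8565 in the other 6. Endothelial markers had 3 of 10 tested and 0 called, at sums of 402 to 497 in ThPOK tumours and 416 to 551 in the other 6. NK cell and erythroid markers had 1 tested gene each, and neither was called. The part of other cells in the rises was not tested. Of 7 pan T cell markers 6 were tested and 3 rose, *Cd3d*, *Cd3g* and *Thy1* (0.83 ± 0.17, adjusted p = 0.0121). The other 3, *Cd3e* (−0.11), *Cd247* (−0.36) and *Cd2* (−0.04), were not called. Against LMO1 tumours alone 0 of the 6 were called.

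**Figure D5:**
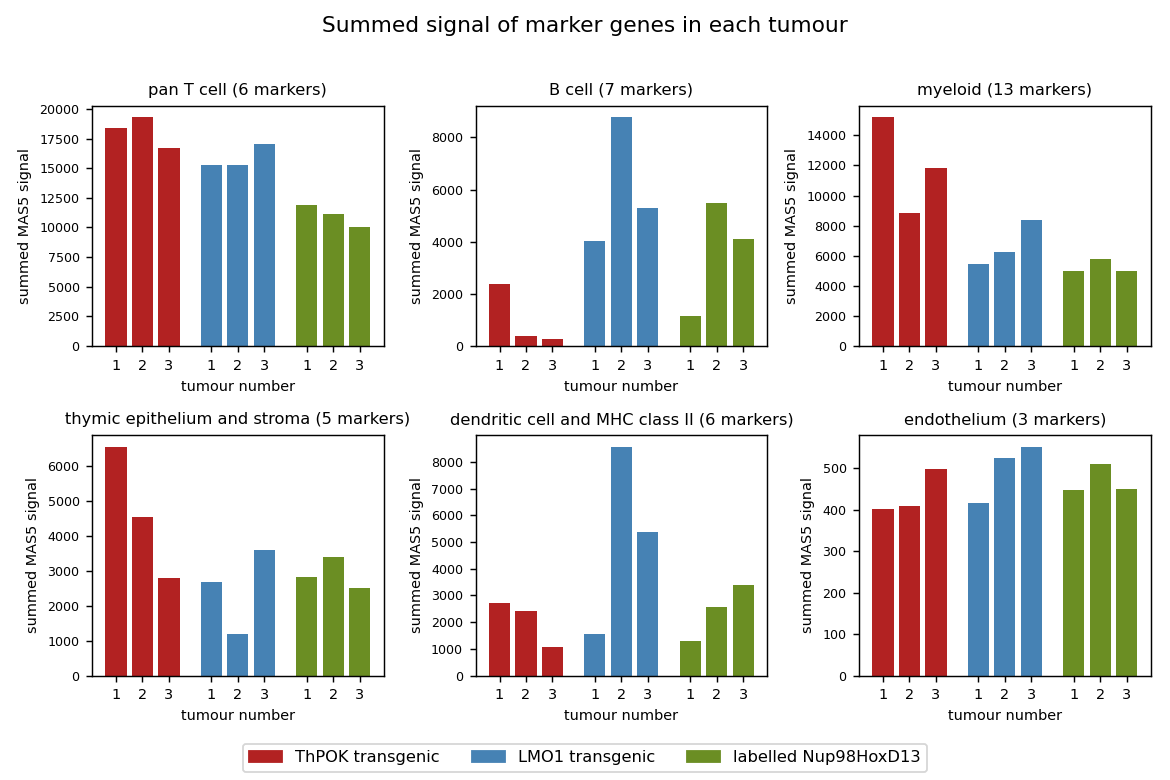
Summed MAS5 signal (linear axis from 0, arbitrary units) of the tested markers of 6 cell types in each tumour, with ThPOK tumours left, LMO1 tumours in the middle and labelled Nup98HoxD13 tumours right. Myeloid sums are 8871 to 15209 in ThPOK tumours, above all 6 others, and LMO1 tumour 2 has the highest B cell sum (8779).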

How the data were processed

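Signals for 22690 probe sets were used as the authors deposited them: linear intensity values from MAS5, which the submitters' processing notes name. Their trimmed means (2% off each end) were 250.064 to 250.102, so arrays were scaled before deposit. The sources used here give no MAS5 version, build or scan batch. Symbols came from the platform table, and 20380 probe sets with 1 symbol were used.

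A probe set was kept where it exceeded the array median in at least 3 of the 9 arrays, and the one of highest mean log2 value stood for its gene, which left 7134 of 12393 genes. limma 3.58.1 in R 4.3.3 (lmFit, eBayes with trend) fitted 1 mean per title background to log2(signal + 15.853), with Benjamini-Hochberg adjustment over all 7134 genes. The script was tested on simulated data. Same-numbered tumours did not deviate together (r of −0.25 to 0.18), so numbers were not taken as pairs.

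The tumours, the 13 gene lists and the 8 marker lists were chosen with earlier results of these data known. Named genes were 24 set by hand, up to 5 of lowest p per list, the 12 largest called differences in each direction, and marker genes or genes said to be picked after their values were seen.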

Additional observations from a re-analysis of the deposited data

How the results depend on the processing

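Of 56 called genes named by the rule, 18 kept call and direction in every alternative that tested them, among them *Cd8a*, *Lmo1*, *Ets1*, *Bcl6* and *Stc1*, and 0 of the 56 reversed. The 18 include *Zbtb7b*, *Egr3* and *Ryk*, which were tested in 17 alternatives and not in all 22. They fell below the filter whenever a ThPOK tumour was left out, so their calls could not be lost there. Of 31 uncalled ones 14 were called in some alternative and 7 reversed in sign. The pooled count of 1343 was 2080 with no filter, 473 with ThPOK tumour 1 and LMO1 tumour 2 both left out (chosen after seeing the data), and 304 to 1306 with 1 tumour left out. Against LMO1 tumours alone (788) it was 1199 with no filter, 1952 with array weights, 413 with the replicate block, 228 with both tumours left out, and 142 to 873 with 1 left out. Against labelled Nup98HoxD13 tumours alone (936) it was 347 with both left out and 140 to 933 with 1 left out. The pooled count under the replicate block was 1013 (967 shared), and the numbers do not pair the samples. Among the genes named by the rule, sign changes were all in uncalled ones. Of all 1343 called genes, 1325 kept their sign after quantile normalization and 1321 with the probe set of largest interquartile range. *Cd4* was 0.18 without ThPOK tumour 1 and 0.19 with both left out (1 left out: −1.63 to 0.18), and *Tox* 0.16 with both left out (−0.45 to 0.26). After quantile normalization *S1pr1* was −0.0084 (1 left out: −0.034 to 0.18) and *Id3* 0.014 (−0.39 to 0.16). With 1 left out *Cd3e* was −0.19 to 0.019, *Il7r* −1.48 to 0.047 and *Bcl2* −0.017 to 0.51. The cause was not tested. Signals under the array medians limit the size of differences in dim genes.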

Other observations

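ThPOK tumour 1 stood apart from the other ThPOK tumours in more genes than tumour 2 or 3 did. At a gap of at least 2 on the log2 scale from the mean of the other 2, 93 tested genes were set apart in tumour 1, against 41 in tumour 2 and 33 in tumour 3. *Il2ra*, the interleukin 2 receptor alpha chain, was 2352 in tumour 1 and 2.82 and 92.1 in tumours 2 and 3, and *Irf4*, a factor induced by receptor signals, was 843 in tumour 1 and 12.1 and 18.4 in the others. *Ms4a4b*, a mature T cell gene, was 282 in tumour 1 and 17.5 and 1.73 in the others. *Gem*, a small GTPase, was 16.2 in tumour 1 and 748 and 917 in tumours 2 and 3. These genes were picked after their values were seen and no test was run.

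The 8 genes called between the LMO1 and labelled Nup98HoxD13 tumours were *Acta1*, *Clasp2*, *Dlx1*, *Dsp*, *Slc15a2*, *Trib2*, *Xpo4* and *Ybx3*. Of these, 3 were picked after their values were seen. *Slc15a2*, a peptide transporter, was 1636, 710 and 837 in LMO1 tumours and 20.1, 3.91 and 14.2 in labelled Nup98HoxD13 tumours. *Ybx3*, a cold shock domain protein, was 978, 2448 and 910 in LMO1 tumours and 94.9, 143 and 103 in labelled Nup98HoxD13 tumours. *Trib2*, a pseudokinase gene, was 2087, 1757 and 1746 in LMO1 tumours and 750, 418 and 358 in labelled Nup98HoxD13 tumours.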
